A study of Homo sapiens with 30 samples.

Results

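Nascent transcription of 9 genes of the STAT and interferon regulatory factor (IRF) pathways was followed through 15 treatment groups of A549 cells, a human lung adenocarcinoma line. The genes are STAT2, STAT3, STAT6, IRF1, IRF2, IRF3, IRF7, IRF9 and the feedback inhibitor SOCS3, taken as the rows of the deposited count table that carry these names. They are 9 of 58780 rows, and all 9 were among the 22919 genes with enough reads to be tested. Precision run-on sequencing (PRO-seq) was used, in which engaged RNA polymerases in permeabilised cells extend their transcripts by a labelled nucleotide, so that the reads report ongoing transcription rather than stored mRNA.

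Each group held 2 libraries. The untreated cells, whose label also reads 15 min, served as the control at every time. Dexamethasone (Dex), a synthetic glucocorticoid, was given at 100 nM for 15 min or 3 h. The 2 other agents were GSK591, which inhibits PRMT5, the main Type II arginine methyltransferase, and MS023, which inhibits the Type I enzymes, both at 1 µM. Either inhibitor was given alone for 2, 4 or 7 days, together with Dex for 3 h, or for 7 days with Dex added for the last 15 min or 3 h as the labels are read here. The labels name no untreated group for 2, 4 or 7 days. Days of inhibitor and time in culture therefore cannot be told apart against untreated cells or between days. All groups, untreated cells included, carried 0.01% DMSO. No genotype was altered, and every group is of the same line. The labels do not say whether the 2 libraries of a group came from separate cultures, so p-values measure the spread between these libraries, which may be technical.

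STAT proteins are latent transcription factors that cytokine receptors activate through JAK kinases. Type I interferons bring STAT2 and IRF9 to interferon-stimulated response elements, while STAT dimers bind GAS elements. IRF3 and IRF7 switch on interferon genes after nucleic acids are sensed, IRF1 amplifies inflammatory and interferon-γ responses, and IRF2 can oppose it. STAT3 carries signals of the IL-6 family and STAT6 those of IL-4 and IL-13. SOCS3, a classical STAT3 target, blocks the receptors and kinases that feed STAT3. Glucocorticoids are known to restrain much of this inflammatory signalling in airway epithelium.

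Total counts per library ran from 8441211 to 13069598, of which mitochondrial genes took 58.7% to 78.7%. The 10 libraries with MS023 for days had mitochondrial shares of 58.7% to 66.1%, against 73.4% and 76.0% in the untreated libraries; leaving mitochondrial and ribosomal RNA genes out of the fit ended no call on a gene named here. The summed counts of 8 markers of the line ran from 5933 to 13952 per library. Summed counts of immune markers were 12 to 66, those of endothelial markers 2 to 31 and those of fibroblast markers 0 to 18. The Dex-induced genes FKBP5 and TSC22D3 rose by 2.90 ± 0.26 and 2.89 ± 0.13 on the log2 scale (± SE here and below) after 3 h of Dex. In this bulk assay, fewer transcribing cells and less transcription per cell cannot be told apart. Values below are counts per library scaled to CPM with TMM, a method that centres most genes on no change, and a gene is called when its edgeR adjusted p lies below 0.05 over all 22919 genes. With 2 libraries per group, groups also failed to overlap for members that were not called, as after 15 min of Dex. Absence of overlap is therefore given below as a description and not as support for a call.

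The start regions of IRF1 and IRF9 are shown because, of the windows at hand, these hold a match to a STAT element and both genes changed with treatment. RefSeq (GRCh38.p14) windows of 300 bases, from 250 before to 50 after the start site, were at hand for 6 of the 9 members. IRF2, IRF3 and IRF7 were not among them. For IRF1 the bases upstream of its first annotated exon are printed, and for IRF9 its match with the bases around it, 5′ to 3′ on the gene's strand, with matches in capitals.
IRF1 (chr5:132490799-132491023, minus strand): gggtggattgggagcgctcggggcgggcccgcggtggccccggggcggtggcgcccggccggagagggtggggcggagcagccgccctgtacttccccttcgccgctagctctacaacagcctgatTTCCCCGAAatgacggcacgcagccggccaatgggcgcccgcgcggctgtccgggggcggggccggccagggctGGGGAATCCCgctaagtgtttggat
IRF9 (chr14:24161193-24161219, plus strand): ccacgtgatTTCTGGGAAaaggccctc
The capitals in the IRF1 window are, from left to right, a GAS match, TTCCCCGAA, at bases -124 to -116 from the start site and a κB consensus match, GGGGAATCCC, at -50 to -41. In the IRF9 stretch they mark a GAS match, TTCTGGGAA, at -63 to -55, which lies in the 5′ UTR of a longer IRF9 transcript in GENCODE 29. GAS was searched as TTCNNNGAA, the interferon-stimulated response element as GAAA and GAAA with 2 bases of any kind between them, the glucocorticoid response element as GAACA and TGTTC with 3 between them and κB by its name, all on both strands. The κB match did not overlap the GAS match. Of 35116 human windows of this length, 7.66% held the GAS letters, 3.57% the interferon-stimulated response element, 0.0228% the glucocorticoid response element and 11.3% κB. The windows of STAT2, STAT3, STAT6 and SOCS3 held none of these letters. That of STAT6 (chr12:57110240-57110539) lies inside the gene, away from the annotated start given below, and neither of the 2 SOCS3 windows (chr17:78360876-78361175 and chr17:78359618-78359917) covers the annotated SOCS3 start, so these promoters were not searched at those starts.

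The members differ widely in level in the count table. Its feature type is not given, so division by exon length is a choice made here. The authors' deposited tables give another order, with mean counts, not divided by length, of 354 for IRF2, 162 for SOCS3 and 22.5 for IRF7. In untreated cells SOCS3 gave 14.6 and 16.7 CPM per kb of exon in the 2 libraries, the highest of the 9. IRF3 followed at 7.74 and 6.72 CPM per kb, and IRF7 at 7.41 and 6.59. These 2 neighbours overlapped. STAT6 stood at 4.74 and 3.99 CPM per kb and STAT3 at 3.28 and 3.85, without overlap. IRF1 was next, at 2.37 and 2.89. STAT2, IRF9 and IRF2 were the lowest: STAT2 gave 0.892 and 0.973 CPM per kb, IRF2 0.785 and 1.03, and IRF9 0.879 and 0.717. The last 3 overlapped one another except for STAT2 and IRF9, and their untreated libraries held 49 and 59, 22 and 32, and 30 and 27 counts, so that their fold changes carry the largest errors.

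The gene positions (GRCh38, GENCODE 29) bear on how well some members can be counted. IRF1 (chr5:132481609-132490798, minus strand) shares 22.0% of its exonic bases with the opposite-strand gene C5orf56, and IRF3 (chr19:49659569-49665875, minus) shares 19.3% with the opposite-strand gene BCL2L12. IRF9 (chr14:24161053-24166565, plus) shares 48.4% with a same-strand readthrough gene, AL136295.5. RNF31, on the same strand, ends 391 bp before IRF9 and had a mean count of 177.8, against 45.3 for IRF9. The counts of IRF9, and those of IRF1 and IRF3 if strand was not used, may hold or lose reads of those neighbours. The part of RNF31 in the IRF9 counts was not tested. STAT2 (chr12:56341597-56360155, minus), STAT3 (chr17:42313324-42388568, minus), IRF2 (chr4:184387713-184474580, minus), IRF7 (chr11:612553-615999, minus) and SOCS3 (chr17:78356778-78360077, minus) share none. STAT6 (chr12:57095408-57132139, minus) shares 1.75% with opposite-strand genes.

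**Figure D1:**
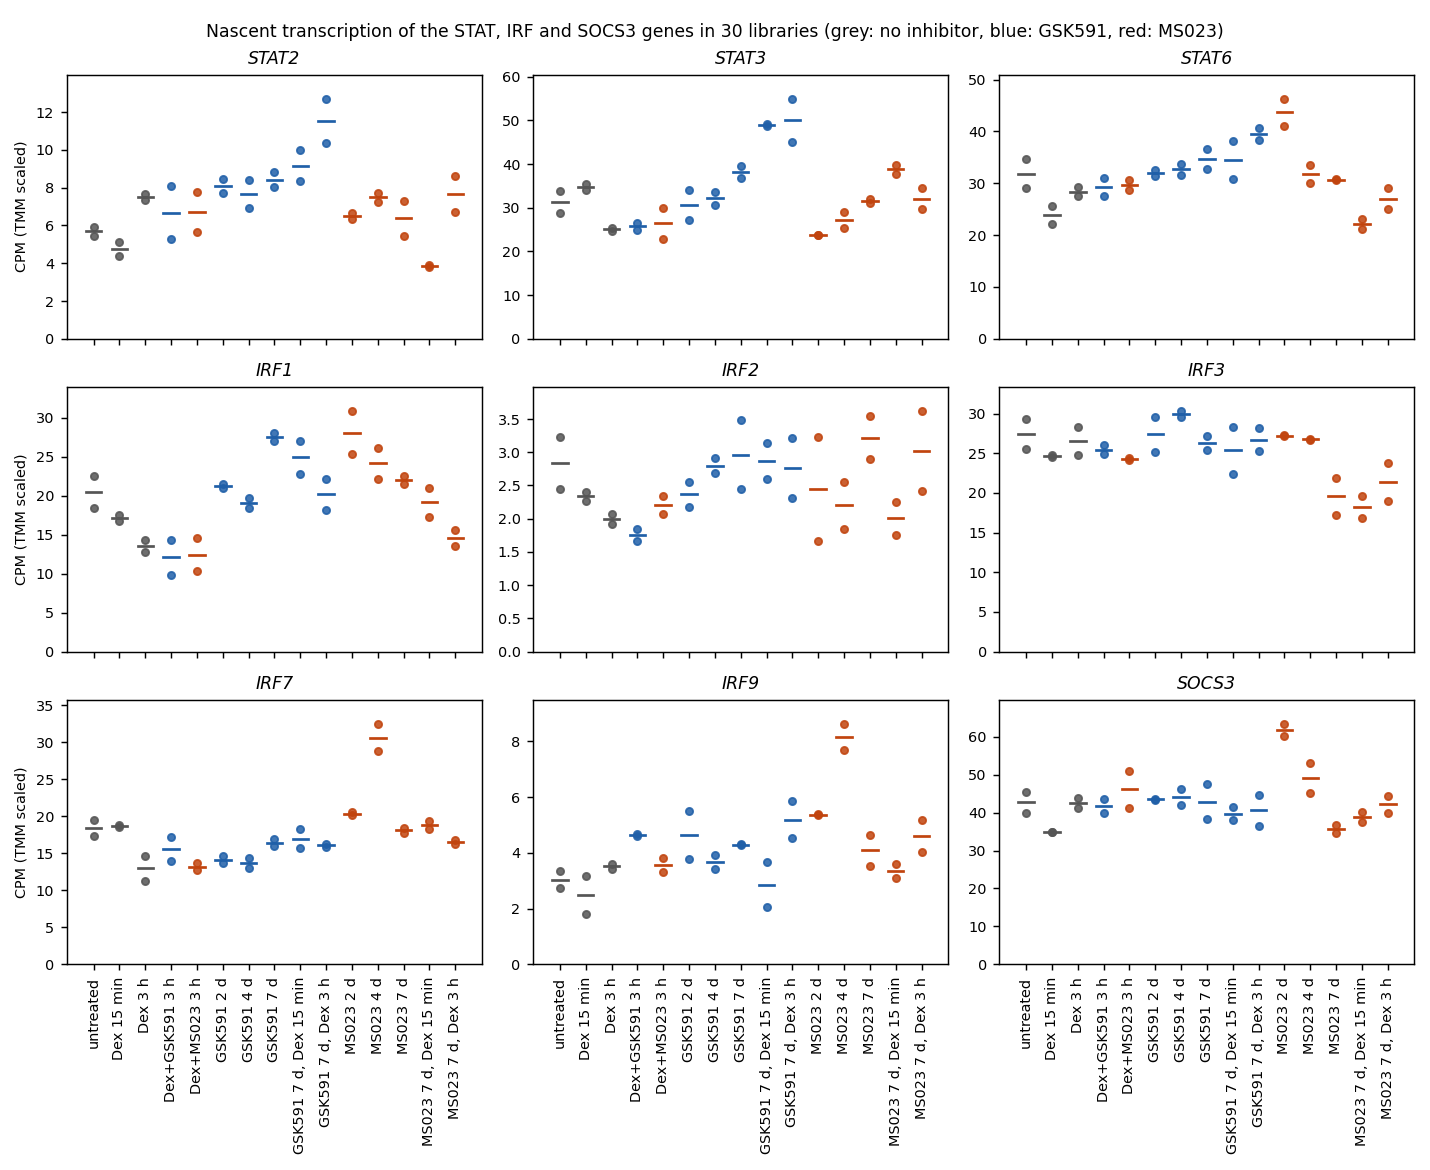
Level of each member in CPM scaled by TMM (vertical axes, from 0) in the 15 groups (horizontal axis). Points are the 2 libraries of a group and bars their mean; grey marks groups without inhibitor, blue those with GSK591 and red those with MS023. IRF7 and IRF9 stand highest after 4 days of MS023, at group means of 30.6 and 8.15 CPM.

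MS023 alone was followed by a rise of the interferon-linked factors IRF7 and IRF9 that was largest on day 4 and not called on day 7. IRF7, the factor that amplifies type I interferon production, gave 28.8 and 32.5 CPM on day 4 against 19.5 and 17.3 in untreated cells. Both day 4 libraries lay above all other libraries. The log2 fold change was 0.74 ± 0.13 (adjusted p = 4.4e-05). IRF9, the DNA-binding partner of STAT2, gave 7.67 and 8.62 CPM against 3.34 and 2.72. Here too both libraries lay above all others, and the log2 fold change was 1.43 ± 0.25 (adjusted p = 4.5e-05). STAT2 itself gave 7.75 and 7.26 CPM against 5.45 and 5.94, a log2 difference of 0.39 ± 0.21 that did not pass (adjusted p = 0.23). These 2 calls, of 9 members, stood beside 14.2% of all genes called in this comparison. The IRF7 and IRF9 calls held under every alternative run, leaving out any 1 library included.

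The time course of both genes turned after day 4. IRF7 was at 20.5 and 20.2 CPM on day 2 and back at 17.8 and 18.5 CPM on day 7. Day 2 and day 7 libraries did not overlap those of day 4. The step from day 2 to day 4 was 0.59 ± 0.13 on the log2 scale (adjusted p = 0.00305) and the step from day 4 to day 7 was -0.76 ± 0.13 (adjusted p = 3.7e-05). IRF9 stood at 5.38 and 5.35 CPM on day 2 and at 3.54 and 4.63 CPM on day 7. It fell by 0.99 ± 0.23 from day 4 to day 7 (adjusted p = 0.0025), while its step from day 2 to day 4, 0.60 ± 0.23, did not pass (adjusted p = 0.12). Between days 2 and 4, 2 of 9 members were called (4.91% of all genes), and between days 4 and 7, 4 of 9 (9.04% of all genes). The IRF7 rise from day 2 to day 4 lost its call without the second MS023 day 2 library (adjusted p = 0.051) or the second day 4 library (adjusted p = 0.094). The IRF9 fall lost it without the second day 4 library (adjusted p = 0.058) or the first day 7 library (adjusted p = 0.088). With total counts as the only scaling, the IRF7 steps came to 0.66 (adjusted p = 0.23) and -0.48 (0.21) and the IRF9 fall to -0.72 (0.15).

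**Figure D2:**
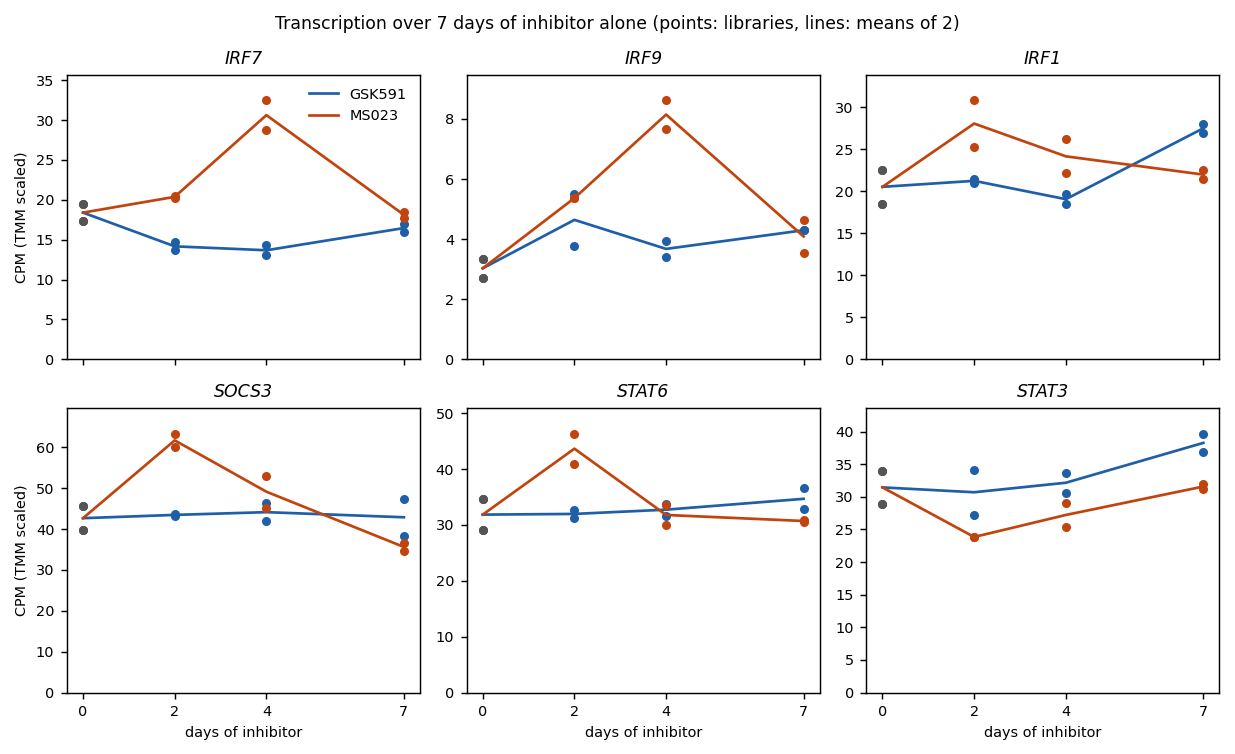
Level in CPM scaled by TMM (vertical axes, from 0) of 6 members against days of inhibitor alone (horizontal axes), with untreated cells at day 0 in grey, GSK591 in blue and MS023 in red. Points are libraries and lines join the means of 2; IRF7 and IRF9 peak on day 4 of MS023, and SOCS3 and STAT6 have their highest means on day 2.

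Other members moved on day 2 of MS023. IRF1, SOCS3, STAT6 and IRF9 rose and STAT3 fell, so that 5 of 9 members were called, beside 10.4% of all genes. SOCS3 gave 63.4 and 60.1 CPM against 39.8 and 45.5 in untreated cells. Both treated libraries were the highest of the 30 for this gene, and the log2 fold change was 0.53 ± 0.12 (adjusted p = 0.0017). STAT6, the IL-4 and IL-13 factor, gave 46.3 and 41.0 CPM against 34.6 and 29.1, a fold change of 0.46 ± 0.12 (adjusted p = 0.0091). IRF1 gave 30.8 and 25.3 CPM against 18.5 and 22.6, without overlap, or 0.45 ± 0.15 (adjusted p = 0.048). IRF9 was higher by 0.83 ± 0.27 (adjusted p = 0.0404). STAT3 was lower, at 23.9 and 23.8 CPM against 28.9 and 34.0, or -0.40 ± 0.13 (adjusted p = 0.037), but its sign turned to 0.27 when total counts were the only scaling, which itself moved the median of all genes by 0.68.

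These day 2 calls were less firm than those of day 4. Without the first MS023 library, STAT6 came to 0.35 (adjusted p = 0.18), IRF1 to 0.29 (adjusted p = 0.43), IRF9 to 0.81 (adjusted p = 0.16) and STAT3 to -0.41 (adjusted p = 0.16). Without the second MS023 library the IRF9 and STAT3 calls were lost as well (adjusted p = 0.15 and 0.16). Leaving out the first untreated library ended the calls of IRF1 (adjusted p = 0.41), IRF9 (0.105) and SOCS3 (0.44, adjusted p = 0.082). Leaving out the second ended those of STAT6 (adjusted p = 0.21), IRF1 (0.053), IRF9 (0.28) and STAT3 (0.37). By DESeq2 the calls of IRF1 (adjusted p = 0.14), IRF9 (0.14) and STAT3 (0.11) were lost. By day 4, STAT6 was back at 33.5 and 30.0 CPM, a fall of 0.46 ± 0.12 from day 2 (adjusted p = 0.014). That fall lost its call without the first MS023 day 2 library (adjusted p = 0.27) or without the first (0.054) or second (0.22) day 4 library. It came to -0.38 (adjusted p = 0.62) with total counts as the only scaling.

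On day 7 of MS023, IRF3 was the member called, beside 13.6% of all genes. This constitutively expressed sensor-pathway factor gave 21.9 and 17.2 CPM against 29.4 and 25.5 in untreated cells, without overlap. The log2 fold change of -0.49 ± 0.13 (adjusted p = 0.0089) turned to 0.54 with total counts as the only scaling, where the median of all genes stood at 1.02. IRF3 fell by 0.45 ± 0.13 from day 4, when it gave 26.8 and 26.7 CPM (adjusted p = 0.018), and SOCS3 fell from 45.3 and 53.0 CPM on day 4 to 34.6 and 36.6 on day 7, by 0.46 ± 0.12 (adjusted p = 0.0067). Both groups of each pair were without overlap. The IRF3 difference from untreated cells lost its call without the second day 7 library (adjusted p = 0.24) or the first untreated library (0.17). Its fall from day 4 was lost without either day 4 library (adjusted p = 0.098 and 0.12) or the second day 7 library (0.38). The SOCS3 fall was lost without the second day 4 library (adjusted p = 0.21) or the first day 7 library (0.089). With total counts as the only scaling, the falls of IRF3 and SOCS3 from day 4 came to -0.18 (adjusted p = 0.69) and -0.19 (0.66).

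With GSK591 alone few members were called, and their number did not stand clearly apart from the share of all genes called. None was called on day 2 by edgeR, with 3 at an unadjusted p below 0.05 and none by DESeq2, and none on day 7, with 3 at an unadjusted p below 0.05 and none by DESeq2; 5.64% and 13.2% of all genes were called on these days. On day 4, IRF7 was called, beside 17.2% of all genes, with a fold change of the opposite sign to that with MS023. It gave 14.3 and 13.0 CPM against 19.5 and 17.3, or -0.43 ± 0.14 (adjusted p = 0.031). The groups did not overlap, yet the call was lost without any 1 of the 4 libraries (adjusted p = 0.056 to 0.26) and reached -0.41 with an adjusted p of 0.11 by DESeq2. It was -0.00088 (adjusted p = 0.999) with total counts as the only scaling, and the authors' deposited table gives 0.03 (SE 0.31). IRF1 rose from 18.4 and 19.7 CPM on day 4 to 27.0 and 28.0 on day 7, by 0.53 ± 0.16 (adjusted p = 0.024), where 8.29% of all genes were called. That call was also lost without any 1 of the 4 libraries (adjusted p = 0.097 to 0.16). It came to 0.08 (adjusted p = 0.84) with total counts as the only scaling. Between days 2 and 4 of GSK591 no member was called by edgeR or DESeq2 and none had an unadjusted p below 0.05 by edgeR, beside 3.39% of all genes called.

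The 2 inhibitors were then set against each other on the same day. On day 4 IRF7 was lower with GSK591 than with MS023, at a log2 difference of -1.16 ± 0.13 (adjusted p = 1.03e-08), and IRF9, at 3.94 and 3.41 CPM with GSK591, was lower, at -1.14 ± 0.24 (adjusted p = 0.0012). Neither gene's libraries overlapped between the inhibitors, both calls held under every alternative run, and 2 of 9 members were called beside 6.03% of all genes. On day 2, where 3 of 9 members and 2.69% of all genes were called, GSK591 gave lower levels of SOCS3 (-0.51 ± 0.12, adjusted p = 0.0085), STAT6 (-0.45 ± 0.12, adjusted p = 0.029) and IRF7 (-0.53 ± 0.14, adjusted p = 0.029). SOCS3 stood at 43.3 and 43.7 CPM with GSK591 on that day, STAT6 at 31.3 and 32.6, and IRF7 at 14.7 and 13.7, all below both MS023 libraries. Each of these 3 calls was lost without any 1 of the 4 libraries, with adjusted p of 0.053 to 0.13 for SOCS3, 0.065 to 0.35 for STAT6 and 0.14 to 0.27 for IRF7. On day 7 IRF3 was higher with GSK591 (25.5 and 27.2 CPM) by 0.43 ± 0.14 (adjusted p = 0.034), beside 9.38% of all genes called. This difference turned to -0.62 with total counts as the only scaling, and its call was lost without either GSK591 library (adjusted p = 0.11 and 0.23) or the second MS023 library (0.41).

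**Figure D3:**
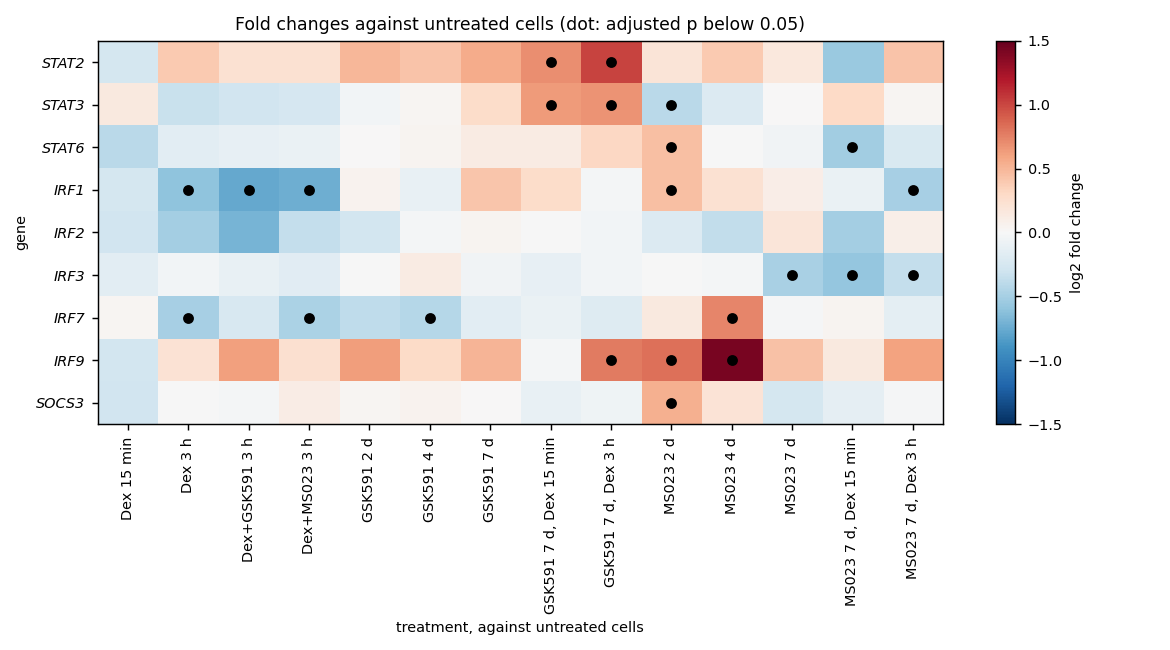
Log2 fold change against untreated cells (colour, red higher and blue lower) of the 9 members (rows) in 14 treatments (columns), with a dot where the adjusted p was below 0.05. The deepest red is IRF9 after 4 days of MS023, at 1.43, and IRF1 is called lower in 4 of the 5 groups given 3 h of Dex; with total counts as the only scaling, the sign turned for IRF1 and IRF3 in MS023 7 d with 3 h Dex, IRF3 and STAT6 in MS023 7 d with 15 min Dex, IRF3 in MS023 7 d, STAT3 in MS023 2 d and IRF7 in Dex with MS023.

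After 3 h of Dex, IRF1 and IRF7 were called lower in the count table. The authors' deposited table gives -0.60 for IRF1 and -0.01 for IRF7. IRF1, an inflammatory activator, gave 14.4 and 12.7 CPM after 3 h against 18.5 and 22.6 in untreated cells. The groups did not overlap, and the log2 fold change was -0.60 ± 0.17 (adjusted p = 0.011). IRF7 gave 14.7 and 11.2 CPM against 19.5 and 17.3, or -0.50 ± 0.15 (adjusted p = 0.018). These 2 of 9 members stood beside 10.5% of all genes called. After 15 min no member was called by edgeR, with 2 at an unadjusted p below 0.05, and none by DESeq2, beside 1.26% of all genes. Between 15 min and 3 h, 2 of 9 members were called (10.8% of all genes). IRF7 fell by 0.52 ± 0.15 (adjusted p = 0.012) from 18.6 and 18.9 CPM, and STAT3 fell by 0.47 ± 0.13 (adjusted p = 0.011) from 35.4 and 34.1 to 24.7 and 25.4 CPM.

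Single libraries carried part of the Dex calls. IRF1 came to -0.52 (adjusted p = 0.14) without the second Dex 3 h library and to -0.44 (adjusted p = 0.23) without the second untreated library. IRF7 came to -0.32 (adjusted p = 0.35) without the second Dex 3 h library and to -0.41 (adjusted p = 0.21) without the first untreated library, and its adjusted p was 0.080 by DESeq2. STAT3 between 15 min and 3 h lost its call without any 1 of the 4 libraries (adjusted p = 0.052 to 0.094), and IRF7 without either 15 min library (0.062 and 0.091) or the second 3 h library (0.28). With total counts as the only scaling, IRF1 and IRF7 after 3 h came to -0.45 (adjusted p = 0.34) and -0.34 (0.51), and IRF7 and STAT3 between 15 min and 3 h to -0.70 (0.087) and -0.63 (0.10).

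Giving an inhibitor together with Dex for 3 h left IRF1 low. With GSK591 present, IRF1 gave 9.80 and 14.4 CPM, or -0.77 ± 0.17 against untreated cells (adjusted p = 0.000801), the 1 member called beside 11.9% of all genes. With MS023 present it gave 14.5 and 10.3 CPM, or -0.73 ± 0.17 (adjusted p = 0.0014), and IRF7 gave 13.7 and 12.7 CPM, or -0.48 ± 0.14 (adjusted p = 0.0201), beside 12.0% of all genes; the IRF7 sign turned to 0.0075 with total counts as the only scaling. All of these lay below both untreated libraries, and the 3 comparisons share those libraries. The 2 libraries of Dex with MS023 were the least alike of the 15 groups, at a Pearson r of 0.923, with 0.959 next. In the second, mitochondrial genes took 61.0% of counts, against 71.2% in the first. Processed pseudogenes took 1.80% of its non-mitochondrial counts, against 1.14%. The IRF1 call with GSK591 was lost without the first treated library (adjusted p = 0.11) or the second untreated library (0.058). With MS023 it was lost without the second treated (0.087) or second untreated library (0.079), and that of IRF7 without the second treated (0.14) or first untreated library (0.19). Both calls with MS023 were also lost when no other groups entered the model (adjusted p = 0.11 for IRF1 and 0.20 for IRF7). IRF1 came to -0.49 (adjusted p = 0.22) with GSK591 and to -0.27 (0.42) with MS023 under scaling by total counts alone.

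Against Dex alone, no member differed when GSK591 or MS023 was added. By edgeR 0 of 9 were called in both comparisons, 0 had an unadjusted p below 0.05, and DESeq2 called 0; the shares of all genes were 0% and 0.196%. For IRF1 the difference from Dex alone was -0.17 with GSK591 (95% interval -0.52 to 0.19) and -0.13 with MS023 (-0.49 to 0.22). For IRF7 it was 0.26 (-0.04 to 0.56) and 0.02 (-0.29 to 0.32). Missing the threshold does not show that the responses were alike, and the intervals give the range that remains. Those with MS023 rest on the pair of libraries described above as the least alike.

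After 7 days of GSK591 with Dex, STAT2 and STAT3 stood at their highest levels. STAT2 gave 10.4 and 12.7 CPM with 3 h of Dex against 5.45 and 5.94 in untreated cells. Both libraries lay above all others, and the log2 fold change was 1.01 ± 0.21 (adjusted p = 0.00022). STAT3 gave 45.1 and 55.0 CPM against 28.9 and 34.0, or 0.67 ± 0.12 (adjusted p = 3.9e-05). IRF9 gave 4.52 and 5.85 CPM, or 0.78 ± 0.28 (adjusted p = 0.033). These were 3 of 9 members, all higher, beside 26.8% of all genes called in that comparison. With 15 min of Dex STAT3 was at 48.6 and 49.3 CPM (0.64 ± 0.13, adjusted p = 0.00017) and STAT2 at 8.33 and 10.0 CPM (0.70 ± 0.22, adjusted p = 0.022), 2 of 9 members beside 15.5% of all genes. The STAT3 calls at both times and the STAT2 call at 3 h held under every alternative run. The STAT2 call at 15 min was lost without the second treated library (adjusted p = 0.27) or the first (0.15) or second (0.092) untreated library, and the IRF9 call at 3 h without the second treated library (0.26) or the first (0.063) or second (0.24) untreated library. The STAT2 call at 15 min was also lost with total counts as the only scaling (0.74, adjusted p = 0.11).

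GSK591 for 7 days without Dex gave levels in between. It gave 8.02 and 8.84 CPM of STAT2 and 36.9 and 39.7 CPM of STAT3, above both untreated libraries but not called (0.56 ± 0.22, adjusted p = 0.0896, and 0.28 ± 0.13, adjusted p = 0.15). Against this group, 3 h of Dex raised STAT3 by 0.39 ± 0.12 (adjusted p = 0.035), the 1 member called beside 9.85% of all genes. That call was lost without the first (adjusted p = 0.26) or second (0.093) GSK591 library or the second library given Dex (0.46). The difference was 0.58 (adjusted p = 0.10) with total counts as the only scaling. With 15 min of Dex no member was called against GSK591 alone by edgeR, with 1 at an unadjusted p below 0.05, or by DESeq2, beside 2.09% of all genes.

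After 7 days of MS023, Dex for 3 h again went with lower IRF1. It gave 15.6 and 13.6 CPM against 22.5 and 21.4 with MS023 alone, a fall of 0.59 ± 0.15 (adjusted p = 0.0049), the 1 member called beside 11.1% of all genes. Against untreated cells IRF1 was lower, at -0.49 ± 0.16 (adjusted p = 0.017) and IRF3, at 23.7 and 19.0 CPM, at -0.36 ± 0.13 (adjusted p = 0.044), beside 21.9% of all genes; with total counts as the only scaling these 2 turned to 0.51 and 0.66. After 15 min of Dex, STAT6 gave 23.2 and 21.2 CPM against 30.9 and 30.5 with MS023 alone, a fall of 0.47 ± 0.12 (adjusted p = 0.024; 2.07% of all genes called). Against untreated cells STAT6 was lower, at -0.52 ± 0.12 (adjusted p = 0.0021) and IRF3, at 19.6 and 16.9 CPM, at -0.58 ± 0.13 (adjusted p = 0.0013), beside 17.2% of all genes, and these turned to 0.37 and 0.30 with total counts as the only scaling. None of these pairs of groups overlapped.

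Again some libraries decided calls. The IRF1 fall from MS023 alone was lost without the first MS023 library (adjusted p = 0.061) or the second library given Dex (0.11), and its difference from untreated cells without the second Dex library (0.19) or the second untreated library (0.295). The IRF3 call at 3 h was lost without the second Dex library (adjusted p = 0.47) or the first (0.36) or second (0.055) untreated library. At 15 min, the STAT6 fall from MS023 alone was lost without any 1 of the 4 libraries (adjusted p = 0.11 to 0.28), and its difference from untreated cells without the first untreated library (0.093). The IRF3 call at 15 min was lost without the first untreated library (adjusted p = 0.0501). With total counts as the only scaling, the falls from MS023 alone came to -0.60 for IRF1 (adjusted p = 0.15) and to -0.61 for STAT6 (0.42).

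**Figure D4:**
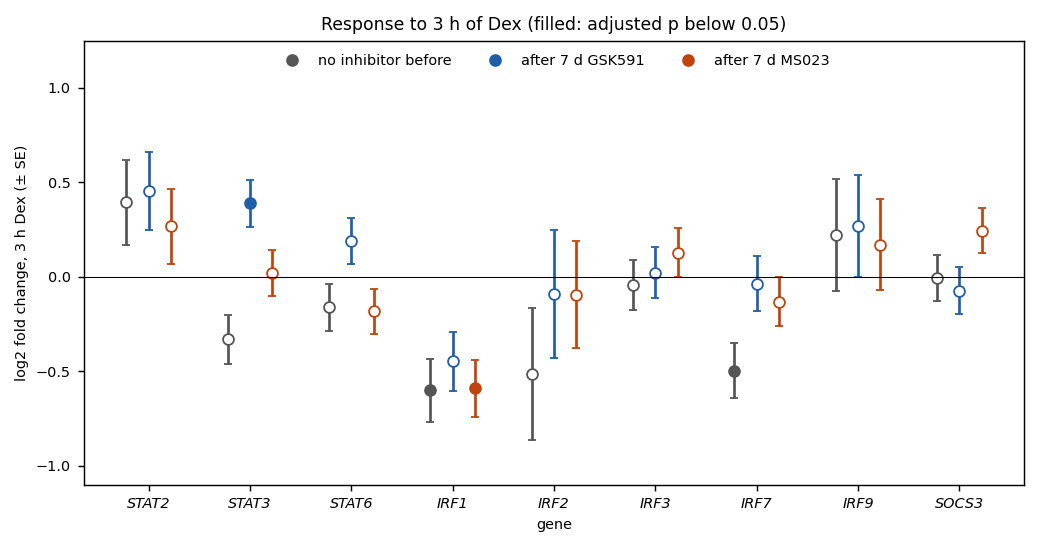
Log2 fold change after 3 h of Dex, ± SE (vertical axis), of the 9 members (horizontal axis) in cells without inhibitor (grey), after 7 days of GSK591 (blue) and after 7 days of MS023 (red), each against the matching group without Dex; filled points have an adjusted p below 0.05. IRF1 lies below 0 in all 3, at -0.60, -0.45 and -0.59, and STAT3 has opposite signs without inhibitor (-0.33) and after GSK591 (0.39).

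Whether an inhibitor changed the Dex response was tested as the difference between the responses. No member passed by edgeR in any of the 4 tests, in which 0.00436% of all genes were called for either inhibitor at 15 min and 0.223% for either at 3 h. DESeq2 called none of the 9 either. At an unadjusted p below 0.05 there were 1 and 2 members for GSK591 at 15 min and 3 h, and 1 and 0 for MS023. The nearest was STAT3, which with GSK591 responded to 3 h of Dex by 0.72 ± 0.18 more than without it (95% interval 0.36 to 1.08, adjusted p = 0.076). It passed without the first library of GSK591 with 3 h Dex (0.85, adjusted p = 0.021) and without the filter on low counts (0.73, adjusted p = 0.048). For IRF1 the difference was 0.15 with GSK591 (-0.30 to 0.61) and 0.01 with MS023 (-0.44 to 0.46). For IRF7 it was 0.46 (0.05 to 0.88, adjusted p = 0.49) and 0.37 (-0.03 to 0.76, adjusted p = 0.601), so that the IRF7 fall seen with Dex alone was not shown to differ after either inhibitor.

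Other genes of the pathway were taken from lists. Among 26 tested interferon-stimulated genes, which carry out the antiviral programme that STAT2 and IRF9 help to drive, 20 rose and none fell on day 4 of MS023, with a median log2 change of 1.27 beside a median of 0.00 over all genes and 7.80% of all genes called higher. OASL reached 3.65 ± 0.33, IFIT1 3.49 ± 0.28 and MX1 2.53 ± 0.24. On day 2, 7 of the 26 rose and none fell (median 0.45; 6.18% of all genes called higher), led by OASL at 3.31 ± 0.34, IFIT1 at 2.43 ± 0.30 and IFIT2 at 2.31 ± 0.30. On day 7, 4 rose and none fell (median 0.37; 7.13% of all genes called higher). From day 4 to day 7, 13 fell and none rose (median -1.03; 4.76% of all genes called lower), with OASL at -4.13 ± 0.33, IFIT1 at -3.36 ± 0.26 and OAS1 at -2.07 ± 0.25. Over the alternatives the number called ran from 5 to 16 on day 2, 15 to 24 on day 4, 2 (DESeq2) to 18 (total counts as the only scaling) on day 7 and 9 to 16 between days 4 and 7. OASL gave 1.01 CPM in untreated cells, 10.1 on day 2, 12.8 on day 4 and 0.716 on day 7. GSK591 raised 2 of the 26 and lowered 1 on day 4, beside 17.2% of all genes called, and 1 (DESeq2) to 5 (total counts) were called over the alternatives. On that day 14 were lower with GSK591 than with MS023 and none higher, beside 3.52% of all genes called lower. Dex for 3 h raised 1 (IFI35, 0.55 ± 0.17) and lowered 2 (IFIT2, -2.10 ± 0.51, and OAS1, -1.55 ± 0.34), beside 6.11% of all genes called higher and 4.41% called lower. IFI35 lost its call by DESeq2 (adjusted p = 0.082), without the second Dex 3 h library (0.43, adjusted p = 0.25) or the second untreated library (0.40, adjusted p = 0.299), and IFIT2 without the first Dex 3 h library (-1.81, adjusted p = 0.078).

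Of 17 tested receptors and kinases upstream of the STATs, Dex for 3 h raised 3 and lowered 4 (6.11% and 4.41% of all genes were called higher and lower; the median of all genes stood at -0.01 and that of the list at -0.03). IL6R, the IL-6 receptor, rose by 1.34 ± 0.16 (adjusted p = 1.2e-08), LIFR by 0.58 ± 0.19 and IFNGR1, a chain of the interferon-γ receptor, by 0.51 ± 0.18. IFNAR2, a chain of the type I interferon receptor, was lower, at -1.37 ± 0.43, JAK3 at -1.04 ± 0.20 and IL4R, the receptor that feeds STAT6, at -0.69 ± 0.20. The IL6R and JAK3 calls held under every alternative run. Leaving out 1 library at a time raised the adjusted p to 0.074 to 0.12 for IL4R and to 0.078 to 0.35 for IFNGR1, for each of the 4 libraries. LIFR lost its call without the first Dex 3 h library (adjusted p = 0.296) or the first (0.059) or second (0.31) untreated library, and IFNAR2 without either Dex 3 h library (0.051 and 0.28) or the first untreated library (0.26). IL6R was already higher after 15 min (0.67 ± 0.17, adjusted p = 0.023), a call lost without either 15 min library (0.34 and 0.075) or the first untreated library (0.96). Over the alternatives 2 to 8 of the list were called after 3 h of Dex, the fewest with total counts as the only scaling. The calls of LIFR, IFNGR1, IFNAR2 and IL4R also ended by DESeq2 (adjusted p = 0.12, 0.16, 0.11 and 0.069) and with total counts (0.069, 0.12, 0.11 and 0.30), and the IL6R call at 15 min ended by DESeq2 (0.060).

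Among 16 negative regulators, which include relatives of SOCS3, Dex for 3 h raised 2 and lowered 2. Of all genes, 6.11% and 4.41% were called higher and lower, and SOCS3 itself stood at -0.01 ± 0.12. SOCS1 rose by 1.52 ± 0.19 (adjusted p = 1.3e-05) and PIAS3, an inhibitor of STAT3, by 0.86 ± 0.22. SOCS2 was lower, at -1.91 ± 0.15 (adjusted p = 5.4e-14) and SOCS6 at -0.61 ± 0.18. PIAS3 lost its call without the first Dex 3 h (adjusted p = 0.15) or second untreated library (0.16), and SOCS6 without the second of either group (0.28 and 0.33), by DESeq2 (0.088) and with total counts (0.40). On day 2 of MS023, 3 rose (CISH by 1.54 ± 0.38, PTPN6 by 0.82 ± 0.17 and SOCS1 by 0.72 ± 0.19) and SOCS2 was lower, at -0.71 ± 0.13, beside 6.18% and 4.21% of all genes called higher and lower. CISH lost its call without the first MS023 library (0.054) or the second untreated library (0.16), PTPN6 without the first untreated library (0.068) SOCS1 without any 1 of the 4 (0.061 to 0.19) and SOCS2 with total counts as the only scaling (-0.05, adjusted p = 0.88). Over the alternatives 2 to 4 and 2 to 7 were called. List medians were -0.03 and -0.15 in these comparisons, beside -0.01 and 0.00 over all genes.

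On day 2 of MS023 and after 3 h of Dex, targets of STAT3 or of IL-6 family signalling were called higher while STAT3 itself was not. The list is not described here for 7 days of GSK591 with Dex, where STAT3 was called higher. Transcription of the STAT3 gene does not measure activation of its protein. Of 12 tested, 9 rose and none fell on day 2 of MS023, beside 6.18% of all genes called higher. The median was 0.92, beside 0.00 over all genes, on the day when STAT3 was at -0.40; 5 (without the first untreated library) to 10 were called over the alternatives. FGA, a fibrinogen chain of the acute-phase response, rose by 3.04 ± 0.20, CEBPD by 1.14 ± 0.16 and the kinase gene PIM3 by 1.04 ± 0.21; PIM3 lost its call without the first untreated library (adjusted p = 0.053). After 3 h of Dex, 4 rose and none fell, beside 6.11% of all genes called higher (medians 0.63 and -0.01), with FGA at 1.77 ± 0.23, PIM3 at 1.59 ± 0.21 and CEBPD at 1.03 ± 0.16, while STAT3 stood at -0.33 ± 0.13 (adjusted p = 0.102). CEBPD is also known as a glucocorticoid-induced gene, and whether any of these rises after Dex went through STAT3 was not tested. In the tests of the difference between Dex responses at 3 h, PIM1 passed for GSK591 (-1.20 ± 0.19) and FGA for MS023 (-1.58 ± 0.27). Neither passed with total counts as the only scaling (-1.16, adjusted p = 1.00, and -1.75, adjusted p = 0.15).

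Among 9 tested STAT and IRF genes outside the members, the IRF2-binding corepressors were the ones called on day 2 of MS023. IRF2BP2 rose by 1.01 ± 0.12, IRF2BP1 by 0.98 ± 0.13 and IRF2BPL by 0.67 ± 0.13 on day 2 of MS023, 3 higher and none lower, beside 6.18% of all genes called higher; 3 to 6 of the list were called over the alternatives. After 3 h of Dex IRF2BP2 was lower, at -0.85 ± 0.12 and IRF2BPL at -0.51 ± 0.14, 2 lower and none higher, beside 4.41% of all genes called lower. IRF2BPL lost that call without the first Dex 3 h library (-0.47, adjusted p = 0.092) or the second untreated library (-0.33, adjusted p = 0.29), and with total counts (-0.35, adjusted p = 0.45). For IRF2BP2 the Dex response at 3 h differed after GSK591 from that without it by -0.98 ± 0.18, which was lost without the second library of GSK591 with 3 h Dex (adjusted p = 0.097) or the first untreated library (0.053), and with total counts (-0.91, adjusted p = 1.00). STAT5A was higher after GSK591 with 3 h Dex than in untreated cells by 0.77 ± 0.15.

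The authors' deposited tables of 14 treatments against untreated cells come from another counting of the same libraries, and the 9 members can be set side by side in both. How the authors' fold changes were estimated is not given in the sources used here. Their sizes may therefore differ from the fit to the counts by method as well as by counting, which was not tested. Of 126 values, the authors' deposited tables called 38, beside 22.4% of all their values with an adjusted p, and the fit to the counts called 23, beside 13.7% of all values. The 16 values called in both made up 16 of 38 and 16 of 23, and all 16 had 1 direction. The mean normalised count per gene in the authors' deposited tables was 354 for IRF2 against a mean count of 26.3 in the count table, 131 against 45.3 for IRF9, 738 against 342 for STAT3, 162 against 449 for SOCS3 and 22.5 against 186 for IRF7.

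In fold change, the point where the 2 sources part most is IRF7 on day 4 of MS023. There the authors' deposited table gives a log2 fold change of 3.09 (SE 0.54) and the fit to the counts 0.74. On day 2 the authors' deposited table gives 1.74 (SE 0.59) where the count table has 0.15. After 3 h of Dex the authors' deposited table gives -0.01 (SE 0.31), against -0.50 in the count table. The other 2 falls of IRF7 called in the count table, on day 4 of GSK591 and after Dex with MS023, stand at 0.03 (SE 0.31) and 0.11 (SE 0.31) in the authors' deposited tables. After 7 days of GSK591 or MS023 with 3 h Dex the authors' deposited tables call IRF7 higher, at 1.21 in both, where the count table has -0.19 and -0.15. IRF7 lies 330 bp from the opposite-strand gene PHRF1 and 565 bp from the same-strand gene CDHR5, neighbours looked up after the values were seen. In the count table PHRF1 was at -0.01 after 3 h of Dex and -0.01 on day 4 of MS023, and CDHR5 at -0.86 on day 4 of MS023; their part in the IRF7 counts was not tested.

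IRF9 was called higher in 10 of the 14 authors' deposited tables and in 3 of the same treatments in the count table, with 1.76 (SE 0.19) on day 4 of MS023 in the authors' deposited table. IRF1 was called in both sources for the same 5 treatments, and after 3 h of Dex both gave -0.60. STAT2 and STAT3 after GSK591 with 3 h Dex stood at 0.95 and 0.54 in the authors' deposited table. SOCS3 on day 2 of MS023 was at 0.79 (SE 0.18) there, and STAT6 at 0.38 (SE 0.13). No treatment had IRF3 called in both sources, and after 7 days of MS023 the authors' deposited table gives 0.03 (SE 0.19) where the count table gives -0.49. On day 4 the authors' deposited tables call IRF3 higher with GSK591 (0.69) and MS023 (0.70), where the count table has 0.13 and -0.03. IRF2, never called in the count table, was called higher in the authors' deposited tables on day 4 of GSK591 (0.36) and of MS023 (0.44), where the count table has -0.03 and -0.37.

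**Figure D5:**
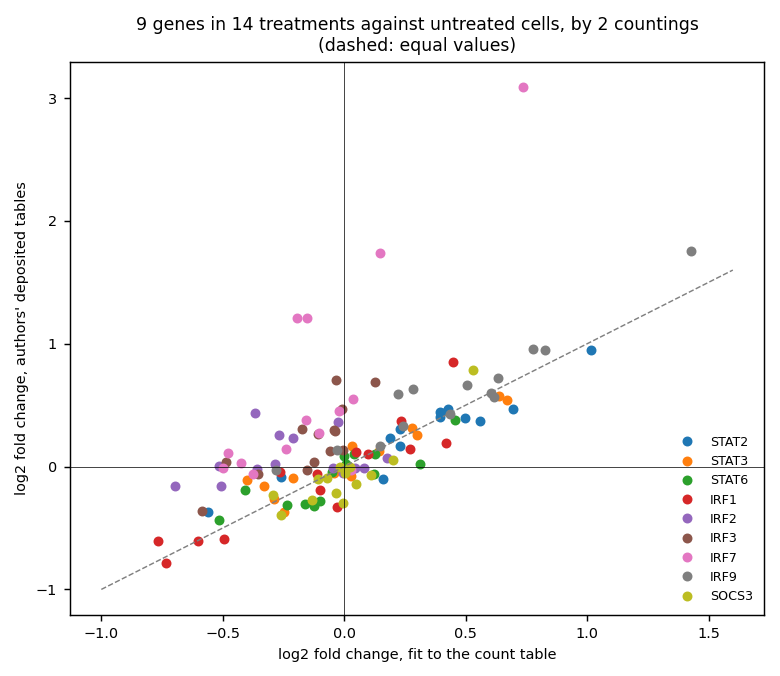
Log2 fold change against untreated cells in the authors' deposited tables (vertical axis) and in the fit to the count table (horizontal axis) for 9 members in 14 treatments, coloured by gene, with a dashed line at equal values. The point farthest above the line is IRF7 (pink) on day 4 of MS023, at 3.09 against 0.74.

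Across the 15 groups, genes whose mean log2 CPM ran most like a member's were looked for among 11116 genes whose mean reached 5 CPM. Nearest to IRF1 were LGALS3BP (Pearson r = 0.931), CSF1 (0.927) and CXCL1 (0.914). IRF7 had EPOP (0.874), TRIM25 (0.838) and ZNF594 (0.831), and IRF9 had IRF2BP1 (0.874), SORBS3 (0.872) and ZNF211 (0.841). SOCS3 had PPP1R9B (0.859), SNAI1 (0.794) and ZBTB12 (0.791). These r values are the highest of many, over groups that share libraries and scaling, and are given as a description. Among the members themselves the closest pair was STAT2 and STAT6 (r = 0.691) and the most opposed STAT3 and SOCS3 (r = -0.533), while IRF7 and IRF9 had an r of 0.457.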

How the data were processed

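The values used are the deposited counts of 58780 genes, as whole numbers, in 30 libraries. The submitters' processing notes name Subread, featureCounts 2.0.1 and hg38; the aligner, the feature type and the use of strand are not given in the sources used here. In the authors' deposited comparison tables, per the file headers, baseMean is a mean signal over samples, with log2 fold changes, their standard errors, p-values and adjusted p-values.

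Counts were tested with edgeR 4.0.16 (R 4.3.3, limma 3.58.1): TMM scaling, filterByExpr (minimum count 10, minimum total 15; 22919 genes kept), robust quasi-likelihood F tests in 1 fit of all 15 groups with 15 residual degrees of freedom, and Benjamini-Hochberg adjustment over all genes in each of 32 comparisons (threshold 0.05). SE was taken as the log2 fold change divided by the root of its F value. Scripts were tested on simulated data. An inhibitor by Dex difference is the Dex response after 7 days of inhibitor minus that without it. Alternatives were DESeq2 1.42.0, DESeq2 size factors, total counts as the only scaling, no low-count filter, the compared groups alone, no mitochondrial or ribosomal RNA genes, replicate number as a blocking term, and each library left out in turn.

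With no molecular identifiers mentioned, counts may include copies of 1 molecule. Named genes were the 9 members, up to 3 rises and 3 falls per list that passed the threshold and averaged 2 CPM or more, FKBP5 and TSC22D3 as a check of Dex, and the 3 genes most like IRF1, IRF7, IRF9 and SOCS3. OASL over the days of MS023, the genes next to IRF7 and RNF31 next to IRF9 are given beside these. The members and lists were chosen with earlier results of these data known. The results of 1 gene outside the members are not reported here.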

Additional observations from a re-analysis of the deposited data

How the results depend on the processing

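Of 88 results on members and named genes of the lists, leaving out mitochondrial and ribosomal RNA genes changed none. DESeq2 size factors ended 2, the compared groups alone 3, no low-count filter 10 (and added 1), DESeq2 27 of 87 and total counts 29. Total counts also turned the sign of 8 more. Each member count below pools the 9 over all comparisons of its kind. With TMM, 5.64% to 17.2% of all genes were called for an inhibitor alone and 3.39% to 9.04% for later against earlier days. The shares were 2.69% to 9.38% between the inhibitors, 1.26% and 10.5% for Dex alone and 2.07% to 11.1% for Dex after an inhibitor. Members called against untreated cells with an inhibitor alone numbered 9, with DESeq2 4, without the filter 6, with total counts 25 and without 1 library 4 to 8. Later against earlier days gave 7, with total counts 1 and without 1 library 2 to 7. GSK591 against MS023 gave 6, with DESeq2 3, without the filter 4, with the compared groups alone 11, with total counts 15 and without 1 library 3 to 6. Dex alone gave 2, with DESeq2 1, with total counts 0 and without 1 library 0 to 2. Dex after an inhibitor, against that inhibitor, gave 3, with DESeq2 1, without the filter 2, with total counts 0 and without 1 library 1 to 4. Differences in Dex response gave 0, without the filter 1 and without 1 library 0 to 1. Dex with an inhibitor against Dex alone gave 0 throughout, and the lists gave 280 calls, 221 to 330 without 1 library. The member calls that DESeq2 ended, beside those named with their treatment above, were IRF1 between days 7 and 4 of GSK591 and after MS023 with 3 h Dex, IRF3 on day 7 of MS023 (against untreated cells, day 4 and GSK591) and with 3 h Dex, IRF7 after Dex with MS023, between 3 h and 15 min of Dex and between the inhibitors on day 2, IRF9 after GSK591 with 3 h Dex, STAT2 after GSK591 with 15 min Dex, STAT3 after GSK591 with 3 h Dex against GSK591 alone, and STAT6 between the inhibitors on day 2 and after 15 min Dex against MS023 alone.

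Total counts as the only scaling moved the median of all genes against untreated cells by -0.03 to 0.42 without MS023 and by 0.51 to 1.02 with it, so that on day 4 of MS023 99.0% of called genes were higher, against 55.1% with TMM. It turned 8 member results: IRF1 after MS023 with 3 h Dex to 0.51, IRF3 after MS023 alone on day 7 to 0.54, with 15 min Dex to 0.30 and with 3 h Dex to 0.66, IRF3 between GSK591 and MS023 on day 7 to -0.62, STAT3 on day 2 of MS023 to 0.27, STAT6 after MS023 with 15 min Dex to 0.37 and IRF7 after Dex with MS023 to 0.0075. Relative to the median of all genes these 8 came to -0.50, -0.48, -0.57, -0.35, 0.45, -0.41, -0.50 and -0.50. Taking off that median undoes most of a change of scaling, so these values lie near those with TMM by arithmetic. They are no separate test of the signs. The cause of the shift was not tested.

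The labels give groups the same replicate numbers and nothing else that pairs them. Over 105 pairs of groups, the differences between replicates 1 and 2 correlated at -0.451 to 0.487 (median 0.0214). With the replicate number as a block none of the 88 gene results changed, and the counts were 9, 7, 6, 2, 4, 0 and 0 in the order above, with 282 for the lists. At 22 to 59 counts in untreated libraries, small changes of IRF2, IRF9 and STAT2 were not detectable at this depth.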
